A study of Mus musculus with 32 samples.

Results

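Control haematopoietic stem cells (HSC) and control multipotent progenitors (MPP) of the Vav cohort were compared by RNA-seq, with 3 libraries of each. These 6 samples were chosen by their titles, and they are 6 of the 32 samples of the series, of which 24 have gene tables. The series follows loss of Jarid2, an accessory subunit of Polycomb repressive complex 2, in mouse blood stem and progenitor cells, and this comparison asks how the sorted populations differ before any mutation is introduced. All 6 libraries came from C57BL/6 mice of 8 weeks, labelled wild-type with Vav-CRE as the driver, a recombinase expressed across blood cells. Both populations were lineage-negative, cKit+, Sca1+ and CD48- marrow cells, and HSC were CD150+ where MPP were CD150-. Per the labels, each replicate was a pool of male and female mice, with 2 different pool sizes given in the protocol text, and RNA was amplified with a SMARTer Ultra Low kit. A pool averages its mice, so animal-to-animal spread is not seen, and the MPP gate takes in all CD150- CD48- cells without a further split by Flt3 or CD34 protein. The other libraries set beside these were Jarid2-KO HSC and MPP of the same cohort, C57BL/6 mice of 8 weeks with Jarid2 deleted under Vav-CRE (3 of each). From the Mx1 cohort came control HSC and MPP (2 of each), from mice of 10 weeks, 2 months after pIpC was given to induce Mx1-CRE. Their fit also held HSC and MPP libraries of Jak2V617F mice with and without Jarid2-KO. Those mice had the same age and time after pIpC, and their own values are not reported here.

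HSC sustain blood formation for life and can rebuild it after transplantation, whereas MPP form all blood lineages but renew themselves only for a short time. As HSC become MPP they lose CD150, the product of Slamf1, and many gain the receptor Flt3, whose ligand favours lymphoid and myeloid output. Part of the HSC pool is known to carry platelet-lineage transcripts such as Vwf.

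The Count column of each table was tested over all genes in one edgeR fit of the 12 Vav libraries, and levels are given in CPM, counts scaled to a common library total. The control libraries held 13606747 to 27232379 counts and 1.629% to 3.464% mitochondrial counts. HSC replicate 1 stood apart on the first principal component (-64.79, against -26.02 and -7.92 in the other HSC libraries and 27.3 to 36.5 in MPP). It was also the shallowest and had the highest mitochondrial share. Its Kit level was 699 CPM, against 1674 and 1741 in the other HSC libraries and 1228 to 1922 in MPP. Heart muscle genes, of which 7 of 20 could be tested, summed to 13.4 to 21.0 CPM in HSC and 15.9 to 29.4 in MPP. Among the Jarid2-KO libraries MPP replicate 1 stood apart, with Xist, the RNA of the inactive X chromosome, at 1.82 CPM, against 191 to 308 in the other Jarid2-KO libraries and 272 to 376 in the controls, although pools of both sexes are labelled. Its mitochondrial share was 0.559%.

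The marker genes lay on the side that the labels give. Slamf1 (ENSMUSG00000015316, mm10 chromosome 1, 171767127 to 171801184), the CD150 gene, stood at 66.1, 57.4 and 64.0 CPM in the HSC libraries and at 5.03, 4.76 and 3.35 in MPP. Flt3 (ENSMUSG00000042817, chromosome 5, 147330741 to 147400489) stood at 27.3, 45.0 and 69.3 in HSC and at 405, 490 and 580 in MPP. Neither gene overlapped between the groups. Kit, the receptor for stem cell factor, did not pass the test (log2 of MPP over HSC 0.09, SE 0.31), and neither did Ly6a, which encodes Sca1 (69.5 ± 17.5 CPM in HSC and 123.3 ± 33.9 in MPP, log2 0.77, SE 0.27, edgeR adjusted p = 0.32). Cd48 was higher in MPP although both gates were CD48-. Its libraries read 14.4, 6.46 and 10.1 CPM in HSC and 26.5, 49.1 and 28.1 in MPP (log2 1.69, SE 0.36, edgeR adjusted p = 0.0339). The call was lost without any 1 of 5 of the control libraries, HSC replicate 1 being the exception, with an adjusted p of up to 0.196. Jarid2 itself did not pass, at 93.9 ± 15.8 and 109 ± 17.2 CPM.

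**Figure D1:**
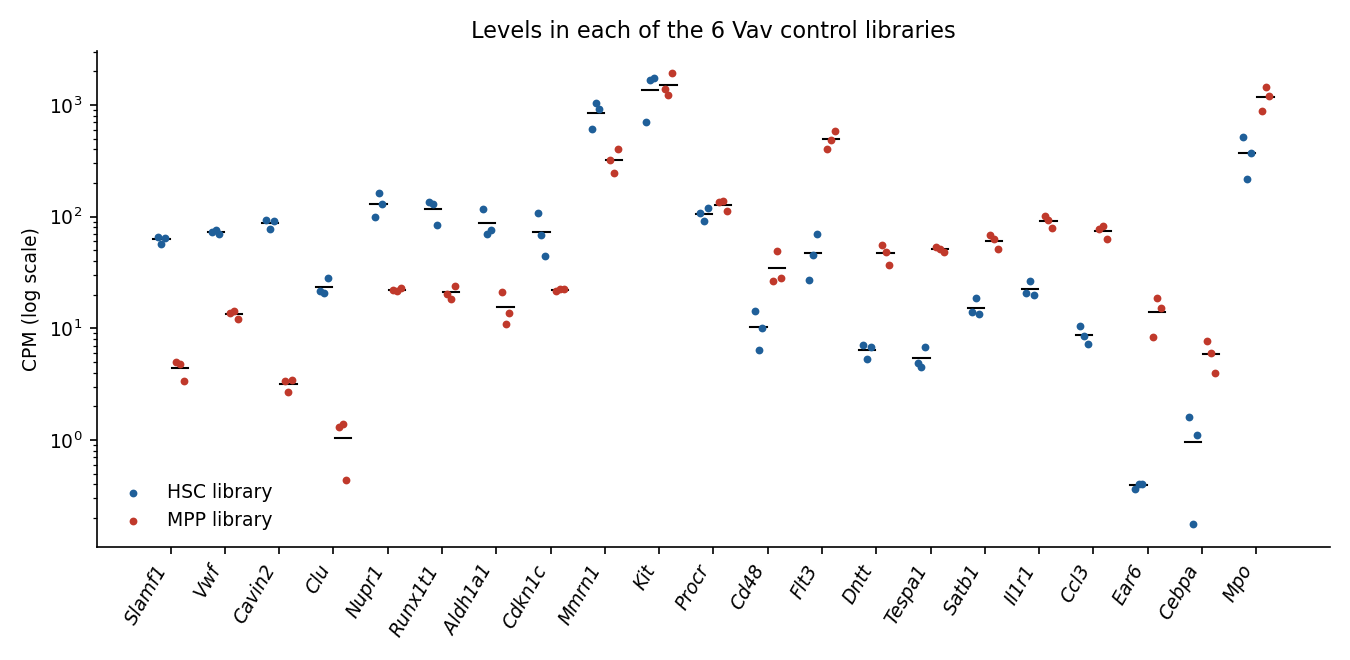
Level of selected genes in each Vav control library, in CPM on a log scale. Points are libraries (blue HSC, red MPP) and bars are the means of 3. Slamf1, Vwf, Cavin2 and Clu sit lower in every MPP library than in any HSC library, Flt3, Dntt and Tespa1 sit higher, and Kit and Procr overlap.

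The GATA motif is the DNA word read by the GATA factors of blood cells. Promoters are shown for the markers Slamf1 and Flt3 and for 4 genes with large changes that hold this motif. They are RefSeq sequences on GRCm38.p6, 250 bases before to 50 after the start site, 5′ to 3′ on the gene's strand. Capitals mark AGATAA or TGATAA or AGATAG or TGATAG on either strand. The first 3 genes were lower in MPP and the last 3 higher.
Slamf1 (chr1:171766882-171767181, + strand): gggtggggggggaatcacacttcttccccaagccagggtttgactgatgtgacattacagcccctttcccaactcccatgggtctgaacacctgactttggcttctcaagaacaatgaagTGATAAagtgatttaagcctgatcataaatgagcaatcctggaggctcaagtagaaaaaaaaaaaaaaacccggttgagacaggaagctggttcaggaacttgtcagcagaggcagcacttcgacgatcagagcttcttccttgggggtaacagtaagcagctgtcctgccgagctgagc
Gkn3 (chr6:87388886-87389185, - strand): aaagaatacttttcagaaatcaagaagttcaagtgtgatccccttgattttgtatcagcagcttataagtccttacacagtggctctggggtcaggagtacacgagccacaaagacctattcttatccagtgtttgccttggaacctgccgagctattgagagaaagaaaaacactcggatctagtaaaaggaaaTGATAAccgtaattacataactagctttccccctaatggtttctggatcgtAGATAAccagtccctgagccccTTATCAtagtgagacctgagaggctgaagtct
Clca3a1 (chr3:144760928-144761227, - strand): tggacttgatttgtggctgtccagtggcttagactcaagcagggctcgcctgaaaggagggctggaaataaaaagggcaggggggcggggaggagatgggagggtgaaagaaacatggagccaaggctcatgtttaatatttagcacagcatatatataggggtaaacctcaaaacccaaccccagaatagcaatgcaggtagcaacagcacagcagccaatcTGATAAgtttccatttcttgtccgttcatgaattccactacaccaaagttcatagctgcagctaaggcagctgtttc
Flt3 (chr5:147400440-147400739, - strand): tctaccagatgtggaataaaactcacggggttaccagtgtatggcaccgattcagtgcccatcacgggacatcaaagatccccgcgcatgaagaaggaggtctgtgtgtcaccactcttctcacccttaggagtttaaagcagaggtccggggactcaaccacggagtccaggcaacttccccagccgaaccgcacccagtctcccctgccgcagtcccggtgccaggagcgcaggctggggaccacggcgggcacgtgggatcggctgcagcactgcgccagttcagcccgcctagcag
Dntt (chr19:41029025-41029324, + strand): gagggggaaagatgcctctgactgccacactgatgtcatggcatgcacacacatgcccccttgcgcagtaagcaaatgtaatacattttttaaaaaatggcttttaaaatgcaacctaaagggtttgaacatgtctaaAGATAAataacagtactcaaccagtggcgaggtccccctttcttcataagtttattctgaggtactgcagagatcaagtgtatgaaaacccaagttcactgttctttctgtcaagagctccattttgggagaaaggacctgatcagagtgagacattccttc
Wfdc17 (chr11:83703806-83704105, + strand): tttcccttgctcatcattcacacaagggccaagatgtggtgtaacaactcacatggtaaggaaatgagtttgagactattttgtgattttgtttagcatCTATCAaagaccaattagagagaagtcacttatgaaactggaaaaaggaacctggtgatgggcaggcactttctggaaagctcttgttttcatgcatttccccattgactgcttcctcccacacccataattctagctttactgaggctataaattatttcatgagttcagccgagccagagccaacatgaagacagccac

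The Gkn3 window holds 3 such words, Slamf1, Clca3a1, Dntt and Wfdc17 hold 1 each, and Flt3 holds 0. A promoter was found for 11201 of the 15818 genes tested, for 61 of the genes higher in MPP and for 73 of those lower. A GATA word was in 19.2% of all these promoters, in 36.1% of the higher genes (22 of 61) and in 32.9% of the lower genes (24 of 73). The RUNX word TGTGGT, searched on both strands too, was in 1459 of all, in 27.9% of higher and in 13.7% of lower genes. For the ETS words CCGGAAG or AGGAAGT or AGGAAAT or CCGGAAA or AGGAAAC, whose matches may share bases with the others, the shares were 37.1%, 37.7% and 30.1%. Median GC content was 60.3% over all promoters, 50.7% in higher and 58.3% in lower genes, and its part in the shares was not tested.

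Of 15818 genes, 185 passed at an adjusted p under 0.05 (1.17%), with 81 higher in MPP (0.512%) and 104 lower (0.657%). At an unadjusted p under 0.05 there were 1335 (8.44%). All 185 had no overlap between the 3 HSC and the 3 MPP libraries, as did 18.3% of all genes tested. The higher genes had a median log2 of 1.70 (0.84 to 5.08) and the lower genes one of -1.91, against -0.02 over all genes. At the edge of the threshold, the 3 called genes with the largest p were Jag1, Nckap1 and the predicted gene Gm5833, and the first not called were Selenom, Cftr and Tmod1. Together the higher genes summed to 2556 to 3035 CPM in HSC and 7904 to 8678 in MPP, and the lower genes to 6782 to 8088 and 2519 to 2890. The count moved with single libraries: leaving out control HSC replicates 1, 2 and 3 gave 97, 70 and 102 calls, leaving out MPP replicates 1, 2 and 3 gave 64, 61 and 69, and leaving out Jarid2-KO MPP replicate 1 from the shared fit gave 403. Of 52 genes named by rule and called, 30 kept the call in all 20 alternatives, and 22 lost it with some library left out. Single Jarid2-KO libraries also ended the calls of Cd48 (any 1 of 2), Cebpa, Itgb3 and Glipr1l1 (any 1 of 3 each) and Jag1 and Itgal (any 1 of 4 each). In these bulk libraries, fewer cells that express a gene and less RNA per cell cannot be told apart.

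**Figure D2:**
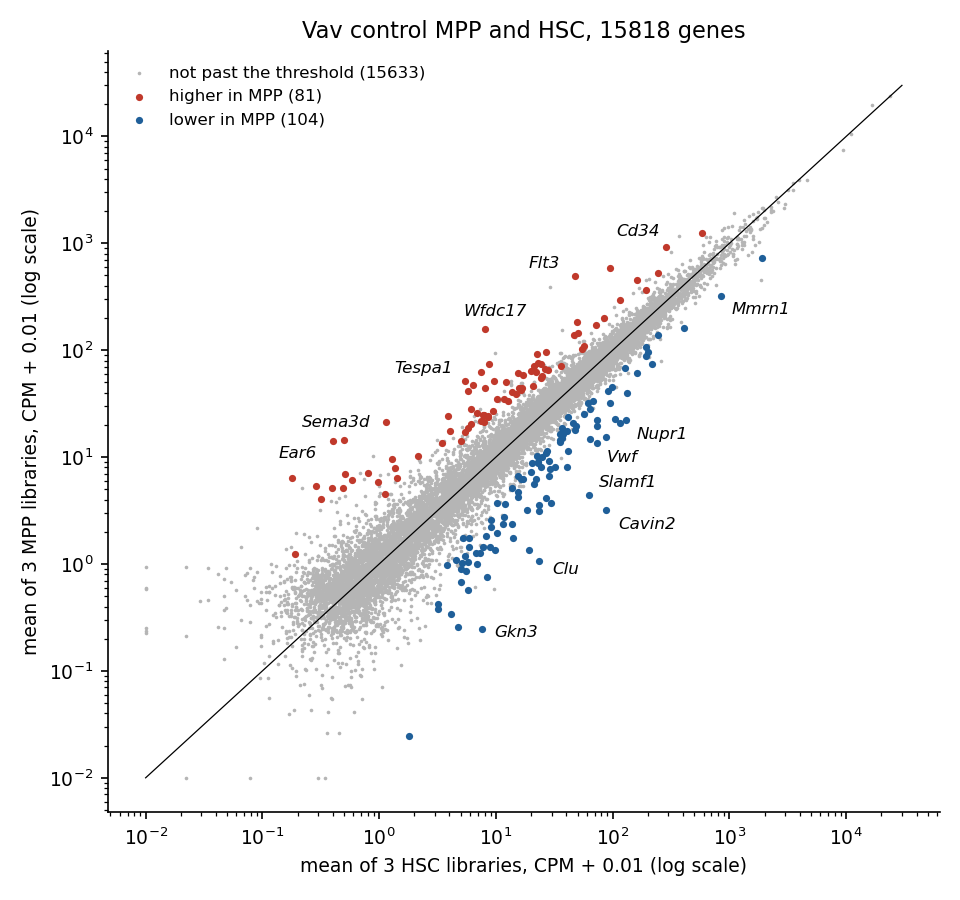
Mean CPM of 3 MPP libraries against the mean of 3 HSC libraries for 15818 genes, with 0.01 added and both axes on a log scale. Red points are the 81 genes higher in MPP, blue points the 104 lower and grey points the rest; the line marks equal levels.

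Genes with the largest falls in MPP included Gkn3, Cavin2, Clu and Slamf1. Cavin2 (ENSMUSG00000045954, chromosome 1, 51289126 to 51302960), a coat protein of caveolae that is abundant in platelets, read 92.6, 78.3 and 91.6 CPM in HSC and 3.40, 2.68 and 3.44 in MPP (log2 -4.83, SE 0.49, edgeR adjusted p = 0.000132). Its partner Cavin1 fell from 1892 ± 516 to 735 ± 126 CPM (log2 -1.43, SE 0.30). Clu, the extracellular chaperone clusterin, read 21.7, 20.8 and 28.2 in HSC and 1.31, 1.39 and 0.441 in MPP (log2 -4.56, SE 0.39). Gkn3 (gastrokine 3) read 8.01, 9.89 and 4.96 CPM in HSC and 0.363, 0.347 and 0 in MPP, where 15 reads in all lay behind it. As with every called gene, the groups did not overlap for these, and the rule for the largest falls required it.

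Slamf1 fell by a log2 of -3.90 (SE 0.46), which restates the CD150 gate. Tm4sf1, a tetraspan membrane protein, changed by -4.26 (SE 0.70), Smtnl1, a smoothelin-like protein of muscle, by -3.87 (SE 0.48), and Gpx8, a peroxidase of the endoplasmic reticulum, by -3.69 (SE 0.48). Clca3a1, of a family of chloride channel regulators, read 27.5, 36.4 and 25.0 in HSC and 3.53, 4.22 and 3.44 in MPP (-3.06, SE 0.30). The remaining members of the 12 largest falls were Cyp26b1 (-3.52), Glipr1l1 (-3.38), Gstm2 (-3.06) and Rhoj (-2.97). Tm4sf1 lost its call without MPP replicate 2 (adjusted p = 0.0595), and Glipr1l1 without any 1 of the 6 control libraries (up to 0.201).

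Platelet-lineage genes were mostly lower in MPP. Of 23 tested members of a megakaryocyte and platelet list, 8 fell (background 0.657%), 1 rose and 14 did not pass, with a median of -1.12 against -0.02 over all genes. In 16 of the 23 all MPP libraries lay below all HSC libraries (7.69% of all genes). Vwf (ENSMUSG00000001930, chromosome 6, 125546774 to 125686679), the adhesion factor of platelets, read 72.9, 75.5 and 69.8 CPM in HSC and 13.8, 14.4 and 12.0 in MPP (log2 -2.51, SE 0.23, edgeR adjusted p = 9.29e-05). The HSC libraries lay far above the MPP libraries, with little spread within either group. Mmrn1, a multimerin stored in platelets, fell from 854 ± 224 to 323 ± 77.6 CPM (-1.46, SE 0.28), and Gp9, a subunit of the Vwf receptor, from 56.7 ± 7.59 to 25.4 ± 3.12 (-1.22, SE 0.24). The thrombin receptor F2r (-1.18), the integrin Itgb3 (-1.67), the granule GTPase Rab27b (-1.41) and Treml1 (-2.52) also fell.

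Several other platelet genes gave values on the same side without passing. Gp1ba read 24.2 ± 1.64 CPM in HSC and 11.6 ± 1.63 in MPP (edgeR adjusted p = 0.12), Pf4 61.9 ± 8.69 and 35.2 ± 8.32, and Itga2b 55.2 ± 21.1 and 26.6 ± 2.45. The member that rose was Thbs1, thrombospondin, at 7.43 ± 2.73 and 21.6 ± 0.707 CPM (log2 1.49, SE 0.29). Plek was higher in every MPP library without passing, at 122.1 ± 17.8 and 232.4 ± 30.6 CPM (log2 0.87, SE 0.28, edgeR adjusted p = 0.222). Nfe2 had a positive log2 too, with overlap (0.08, SE 0.36). Leaving out 1 control library at a time gave 2 to 4 falls and 0 or 1 rise. Mmrn1 and Rab27b lost the call without any 1 of 4 control libraries (adjusted p up to 0.139 and 0.107), Gp9 and Thbs1 without any 1 of 5 (0.128 and 0.114) and Itgb3 without any 1 of 6 (0.192).

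Genes linked to stem cell identity mostly had lower values in MPP, and Procr, Hlf and Mecom were not called. Of 38 tested, 11 fell (0.657% of all genes did), 0 rose and 27 did not pass (edgeR; 1 rose at an unadjusted p under 0.05, 0 by DESeq2 and 1 by limma-voom), with a median of -0.75. In 25 of the 38 every MPP library lay below every HSC library (7.69% of all genes). Nupr1, a stress-response nuclear protein, read 98.8, 164 and 129 CPM in HSC and 22.2, 21.6 and 22.8 in MPP (log2 -2.63, SE 0.24). Runx1t1, a corepressor of the ETO family, read 135, 129.9 and 84.0 in HSC and 20.5, 18.4 and 23.9 in MPP (-2.54, SE 0.25). Vwf is on this list too.

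The lectin receptor Clec1a (-2.26), the sulfotransferase Sult1a1 (-2.18), the catenin-like gene Ctnnal1 (-1.97), the guidance receptor Neo1 (-2.81), the channel Trpc6, the cytokine feedback inhibitor Socs2 (-1.20) and the tetraspanin Cd9 (-0.87) fell. By contrast Procr, whose product EPCR marks HSC, read 108, 90.8 and 119 in HSC and 135, 139 and 111 in MPP, which overlap. Hlf, a transcription factor of HSC, stood at 666 ± 77.6 and 1027 ± 120.0 CPM (log2 0.56, SE 0.25, edgeR adjusted p = 0.519), and Mecom at 218 ± 30.5 and 174 ± 1.78 (-0.38, SE 0.20). Mycn (-0.79), Gfi1b (-1.30), Tek (-1.28), Mllt3 (-0.98) and Gata2 (-0.78) were lower in all MPP libraries without passing. Leaving out 1 control library at a time gave 6 to 10 falls.

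Of 11 tested genes of retinoic acid metabolism 2 fell (0.657% of all genes did). Aldh1a1, which makes retinoic acid, read 116, 70.3 and 76.6 CPM in HSC and 15.4 ± 5.34 in MPP (log2 -2.57, SE 0.29, edgeR adjusted p = 0.000419). Cyp26b1, which degrades it, read 16.2, 4.48 and 4.63 in HSC and 0.816, 0.546 and 0.882 in MPP (-3.52, SE 0.62), with HSC replicate 1 well above the others. Its call was lost without any 1 of the 3 MPP libraries (adjusted p up to 0.0944). The list median was -0.17, and 0.01 without HSC replicate 1. Dhrs3, which returns retinal to retinol, stood the other way without passing (149 ± 29.9 and 343 ± 69.0 CPM, adjusted p = 0.0839 by edgeR). Detoxifying enzymes fell at 2 of 23 (0.657% of all genes), Gstm2 (log2 -3.06) and Sult1a1, around a list median of -0.05.

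Of 16 tested imprinted genes, 3 fell (0.657% of all genes did) and 0 rose (edgeR, with 0 higher at an unadjusted p under 0.05, by DESeq2 or by limma-voom), with a median of -0.92. Cdkn1c, the CDK inhibitor p57, read 108, 68.8 and 44.1 CPM in HSC and 21.8, 22.4 and 22.3 in MPP (log2 -1.80, SE 0.36, edgeR adjusted p = 0.026). The MPP libraries were nearly equal and the HSC libraries spread widely. Grb10, an adaptor that damps growth factor signals, fell from 191 ± 25.1 to 87.7 ± 14.8 (-1.18, SE 0.22). H19, a noncoding RNA, had 49, 16 and 23 reads in HSC and 0, 0 and 1 in MPP, which is too few in MPP for a fold. Its partner Igf2 read 1.68 ± 0.335 and 0.565 ± 0.299 CPM and did not pass. Without 1 control library, 1 to 3 of these genes fell. Cdkn1c lost its call without any 1 of 5, HSC replicate 3 being the exception (adjusted p up to 0.14), and Grb10 without HSC replicate 2, MPP replicate 1 or MPP replicate 2 (up to 0.113).

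No DNA replication or mitosis gene passed the test in either direction, although most had lower values in MPP. Of 37 DNA replication genes 0 passed in the edgeR fit (9 lower and 0 higher at an unadjusted p under 0.05; 1 lower by DESeq2 and 6 by limma-voom), and 33 had a negative log2, with a median of -0.31. Of 30 mitosis genes 0 passed (6 lower at an unadjusted p under 0.05; 0 by DESeq2 and 2 lower by limma-voom), 26 were negative and the median was -0.38. Over all genes 8.44% had an unadjusted p under 0.05, in either direction. In 12 of the 37 replication genes every MPP library lay below every HSC library, and in 1 above. For the 30 mitosis genes these counts were 7 and 0 (7.69% of all genes lay below and 10.7% above). The mitosis genes summed to 2317 to 3228 CPM in HSC and 1919 to 2409 in MPP, which overlap. Mki67, a marker of cycling cells, read 246, 126 and 187 CPM in HSC and 145, 137 and 124 in MPP. Top2a, which untangles DNA, stood at 517 ± 92.6 and 406 ± 79.1, and the helicase subunit Mcm3 at 351 ± 36.0 and 298 ± 41.9. Of 20 cyclin D, CDK and inhibitor genes only Cdkn1c passed, as a fall (0.657% of all genes fell). Ccnd2, a D-type cyclin, read 604 ± 89.2 and 375 ± 18.4 CPM (log2 -0.75, SE 0.18, edgeR adjusted p = 0.063).

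Lymphoid-lineage genes were higher in MPP. Of 19 tested, 7 rose (background 0.512%), 0 fell, and all 19 had a positive log2, with a median of 1.59. In 16 of the 19 every MPP library lay above every HSC library (10.7% of all genes). Flt3 rose by a log2 of 3.33 (SE 0.38, edgeR adjusted p = 0.000419). Tespa1, a T cell receptor signalling protein, read 4.92, 4.54 and 6.87 CPM in HSC and 53.3, 51.8 and 48.2 in MPP (3.17, SE 0.29). Dntt, the terminal transferase of lymphoid progenitors, read 7.06, 5.29 and 6.83 in HSC and 56.1, 47.9 and 36.8 in MPP (2.81, SE 0.29). The 3 HSC libraries were low for both genes, far under any MPP library.

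Satb1, a chromatin organiser of lymphoid cells, rose from 15.3 ± 2.92 to 60.8 ± 8.92 CPM (1.91, SE 0.28), and Cd52 from 12.1 ± 3.17 to 50.3 ± 6.59 (1.99, SE 0.38). Lax1 rose by 0.94 (SE 0.19). Notch1 (17.4 ± 1.34 and 38.1 ± 8.26 CPM, edgeR adjusted p = 0.0569) and Ikzf1 (146 ± 17.9 and 218 ± 15.6) did not pass. The recombinase genes Rag1 and Rag2 read 0.673 ± 0.124 and 1.76 ± 0.796 CPM in MPP and 0.144 ± 0.131 and 0.240 ± 0.242 in HSC. Among genes of committed lymphocytes, 0 of 11 B cell genes passed (0 at an unadjusted p under 0.05, 0 by DESeq2 and 0 by limma-voom) and 0 of 12 T and NK cell genes (5 unadjusted, 2 by DESeq2 and 3 by limma-voom). Without 1 control library, 4 to 6 lymphoid genes rose. Cd52 lost its call without any 1 of 5 control libraries (adjusted p up to 0.12).

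**Figure D3:**
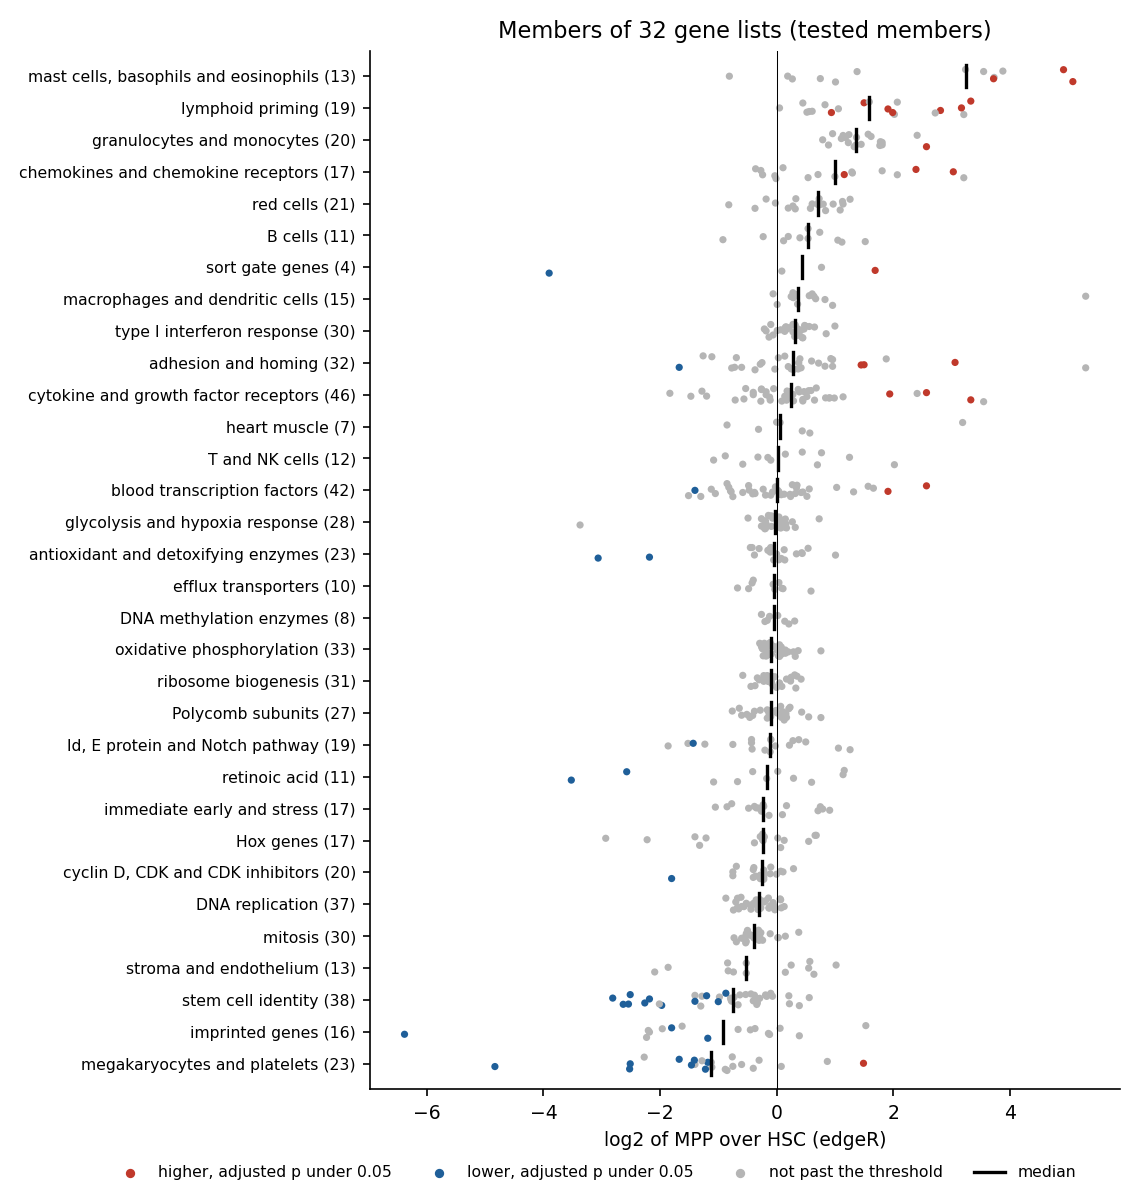
Log2 of MPP over HSC for every tested member of 32 gene lists, with the number tested in brackets. Red and blue points passed in either direction, grey points did not, and black bars are medians, which run from -1.12 (megakaryocytes and platelets) to 3.24 (mast cells, basophils and eosinophils, 1.39 with only the control libraries).

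Receptors for cytokines rose at 3 of 46 tested genes (0.512% of all genes) and fell at 0 (edgeR; 4 lower at an unadjusted p under 0.05, 3 by DESeq2 and 4 by limma-voom), with a median of 0.24. Besides Flt3 these were Il1r1, a receptor of interleukin 1, at 22.6 ± 3.69 CPM in HSC and 101, 93.6 and 79.2 in MPP (1.94, SE 0.29), and Il10ra at 3.85 ± 0.945 and 24.0 ± 5.63 (2.57, SE 0.40). All 3 were called whichever single control library was left out. Chemokine genes rose at 3 of 17 (0.512% of all genes), with a median of 1.00. Ccl3, an inflammatory chemokine, read 10.4, 8.49 and 7.20 CPM in HSC and 77.4, 82.8 and 62.6 in MPP (3.03, SE 0.29, edgeR adjusted p = 9.29e-05). Its neighbours on chromosome 11 rose too, Ccl9 (2.39, SE 0.38) and Ccl4 (1.16, SE 0.21), though Ccl9 lost its call without HSC replicate 2 (adjusted p = 0.05) and Ccl4 without any 1 of 4 control libraries (up to 0.0921).

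Wfdc17 and Wfdc18, small protease inhibitor-like proteins of the same chromosome, rose by 4.26 (SE 0.53) and 4.19 (SE 0.66). Wfdc17 read 10.7, 6.75 and 6.54 CPM in HSC and 187, 175 and 117 in MPP. Whether reads of these neighbouring genes could be assigned to the wrong one was not tested. Sema3d, a secreted guidance factor, read 0.220, 0.698 and 0.551 in HSC and 22.1, 10.9 and 10.5 in MPP (4.76, SE 0.87), resting on 30 reads in HSC, and its call was lost without any 1 of the HSC libraries or MPP replicate 1 (adjusted p up to 0.083). Card6, a caspase recruitment domain protein, rose from 1.29 ± 0.359 to 9.68 ± 1.32 CPM (2.83, SE 0.42). Ddx4, an RNA helicase known from germ cells, rose from 5.80 ± 1.69 to 41.3 ± 8.48 (2.77, SE 0.34).

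Adhesion genes rose at 3 of 32 (0.512% of all genes) and fell at 1 (0.657%), with a median of 0.28. Itgb5 read 0.808, 0.814 and 0.771 CPM in HSC and 7.93, 8.68 and 4.54 in MPP (3.06, SE 0.44, edgeR adjusted p = 0.00262), a rise in every library. The leukocyte integrin Itgal (8.57 ± 1.53 and 24.3 ± 3.42 CPM) rose, and Itgb3 fell. Itgal lost its call without any 1 of the 6 control libraries (adjusted p up to 0.209). Several further genes outside the list, chosen after their values were seen, were also called. Cd34, a sialomucin used to divide stem cell fractions, read 258, 279 and 329 in HSC and 977, 817 and 997 in MPP (1.63, SE 0.24, edgeR adjusted p = 0.00312). Cd53, a leukocyte tetraspanin, rose from 94.3 ± 17.7 to 588 ± 12.1 CPM (2.58, SE 0.32), and the endosomal RNA sensor Tlr7 from 0.277 ± 0.190 to 5.32 ± 1.25 (4.18, SE 0.66). Plac8 (1.45), Cd33 (2.49), H2-Ob (1.79), Ctss (1.70) and P2ry14 (1.47) rose, while Timp3, an inhibitor of metalloproteases (26.6 ± 2.82 and 4.14 ± 1.01 CPM), Igf1 (-1.35), Fhl1 (-1.91) and Tgm2 (-1.61) fell.

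Granulocyte and monocyte genes were higher in MPP as a set of values, with a single call. All 20 tested had a positive log2, the median was 1.37, and in 18 every MPP library lay above every HSC library (10.7% of all genes), but only Cebpa, the transcription factor of the granulocyte lineage, passed (0.964 ± 0.731 and 5.89 ± 1.85 CPM, log2 2.57, SE 0.56, edgeR adjusted p = 0.0404). Cebpa lost its call without any 1 of 5 control libraries, HSC replicate 1 being the exception (adjusted p up to 0.189). Leaving out any 1 of the 3 Jarid2-KO HSC libraries from the shared fit ended it too. The count of calls, set beside 0.512% of all genes, varied with the fit: 12 of the 20 passed by limma-voom, 7 by DESeq2, 19 in edgeR with no filter on low counts and 6 in edgeR with only the control libraries. Mpo, the granule peroxidase, read 522, 216 and 368 CPM in HSC and 879, 1438 and 1205 in MPP (edgeR adjusted p = 0.177). Elane read 527, 155 and 256 in HSC and 648, 1026 and 828 in MPP. HSC replicate 1 was the highest HSC library for both. The list summed to 3576, 1121 and 2244 CPM in HSC and 4754, 6377 and 5090 in MPP.

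The eosinophil ribonuclease genes Ear6 and Ear1 had the highest log2 values among the called genes. Ear6 read 0.367, 0.407 and 0.404 CPM in HSC and 8.38, 18.7 and 15.2 in MPP (5.08, SE 0.80, edgeR adjusted p = 0.00499), with Ear1 at 4.92 (SE 0.92) and Ear2 at 3.72 (SE 0.74). Over the 3 HSC libraries together Ear6 had 23 reads, Ear1 13 and Ear2 31, and the family shares sequence, so its counts are uncertain. Of 13 tested mast cell, basophil and eosinophil genes these 3 rose and 0 fell (edgeR, with 0 lower at an unadjusted p under 0.05, by DESeq2 or by limma-voom; 0.512% of all genes rose), with a median of 3.24. That median was 2.32 over the 10 members left at a minimum count of 20, and 1.39 over the 11 tested with only the control libraries. Ear1 lost its call without any 1 of 4 control libraries (adjusted p up to 0.088) and Ear2 without any 1 of 5 (up to 0.128), and 1 to 4 members rose when single control libraries were left out. Prg2 and Epx, granule proteins that define eosinophils, did not pass: Prg2 read 5.22, 3.08 and 79.6 CPM in HSC and 307, 496 and 375 in MPP, and Epx 0.808, 0.756 and 27.8 in HSC and 62.3, 106 and 116 in MPP. HSC replicate 3 held most of the HSC signal of both. The list summed to 36.2 to 131 CPM in HSC and 468 to 739 in MPP, and the part of such cells in the Ear values was not tested.

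**Figure D4:**
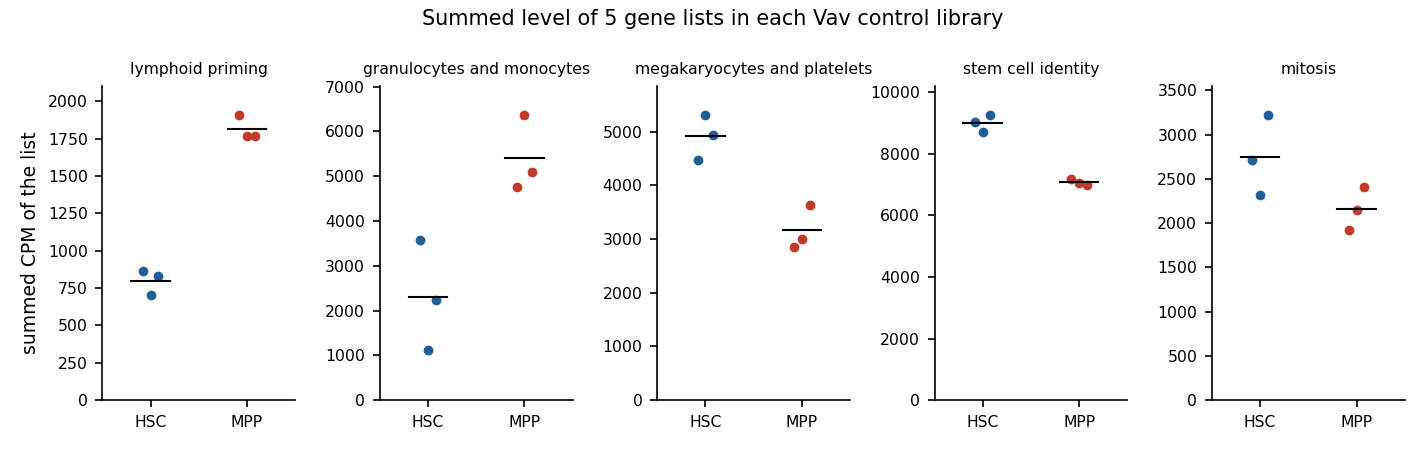
Summed CPM of the genes of 5 lists in each Vav control library, from 0. Points are libraries and bars are means of 3. HSC and MPP do not overlap for the lymphoid, granulocyte and monocyte, megakaryocyte and platelet, or stem cell lists, and overlap for mitosis.

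Among 42 blood transcription factors 2 rose (Satb1 and Cebpa; 0.512% of all genes did) and 1 fell (0.657%), with a median at -0.00. On each side 11 genes did not overlap between the groups, against 10.7% of all genes above and 7.69% below. In the Id, E protein and Notch list of 19, only Jag1, a Notch ligand, passed, falling from 22.7 ± 7.79 to 8.83 ± 1.59 CPM (-1.43, SE 0.32, edgeR adjusted p = 0.0478), a call lost without any 1 of 5 control libraries (up to 0.294). Of 17 Hox genes 0 passed in edgeR (4 at an unadjusted p under 0.05, 1 by DESeq2 and 2 by limma-voom). Hoxb5, a marker of HSC in mice, read 15.8 ± 2.95 and 6.27 ± 2.16 CPM, and Hoxa9 stood the other way at 76.1 ± 2.24 and 126 ± 15.7. Both had no overlap between the groups, as did 18.3% of all genes tested. Of the 17 Hox genes, 2 were higher in every MPP library than in any HSC library, and 3 were lower.

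Housekeeping, Polycomb and DNA methylation lists sat near the median of all genes, and the interferon and red cell lists above it. In edgeR 0 of 33 oxidative phosphorylation genes passed (median -0.09; 1 at an unadjusted p under 0.05, 0 by DESeq2 and by limma-voom), and 0 of 31 ribosome biogenesis genes (-0.09; 0 by all 3). The glycolysis and hypoxia list had 0 of 28 (-0.03; 2 unadjusted, 0 by DESeq2, 2 by limma-voom), Polycomb subunits 0 of 27 (-0.10; 2 unadjusted, 0 by DESeq2, 1 by limma-voom) and DNA methylation enzymes 0 of 8 (-0.05; 0 by all 3). Dnmt3a, which sets new DNA methylation, stood at 188 ± 16.0 and 197 ± 24.0 CPM. Interferon-response genes had 25 of 30 values positive and a median of 0.31, with 0 called (2 unadjusted, 0 by DESeq2 and by limma-voom). In 14 of the 30 every MPP library lay above every HSC library, and in 0 below (10.7% and 7.69% of all genes). The list summed to 2009 to 2495.5 CPM in HSC and 2675.9 to 2856.6 in MPP. Irf9, which carries the interferon signal to DNA, stood at 199 ± 2.93 and 239 ± 10.2. Red cell genes had a median of 0.71 and 0 of 21 called (3 unadjusted, 2 by DESeq2, 4 by limma-voom). In 9 of the 21 every MPP library lay above every HSC library, and in 2 below. The list sum went the other way from the median, at 8764.9 to 11254.9 CPM in HSC and 8346.7 to 8486.8 in MPP. Car2, the most abundant member, made up most of that sum, at 9309.8 ± 1232.6 and 7524.9 ± 171.9 CPM. Car1 stood higher in MPP without passing, at 203.9 ± 71.4 and 465.8 ± 125.1 CPM (log2 1.14, SE 0.44).

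Lists of other cells and functions had 0 calls in edgeR. Macrophage and dendritic cell genes had a median of 0.36 over 15 (3 at an unadjusted p under 0.05, 0 by DESeq2 and 2 by limma-voom) and heart muscle genes one of 0.06 over 7 (1, 0 and 1). For stroma and endothelium the median was -0.52 over 13 (3, 1 and 2), and it changed sign with the library left out. Immediate early and stress genes had -0.23 over 17 (2, 0 and 1), and 0.13 without HSC replicate 1, and efflux transporters -0.05 over 10 (1, 0 and 0).

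The same step from HSC to MPP was read in the Jarid2-KO libraries of the cohort, which share no sample with the controls. Both contrasts came from the same fit, with a shared filter and estimate of spread, so calls there are not independent of the control calls. That fit called 83 genes between Jarid2-KO MPP and HSC, and a fit of only the 6 Jarid2-KO libraries called 23. Of the 81 genes higher in control MPP, 79 were also higher in Jarid2-KO MPP (97.5%, against 55.1% of all genes), and 18 passed in that direction there (0.177% of all genes did). Of the 104 lower genes, 103 were lower (99.0%, against 44.9%), and 41 passed (0.348% of all genes did). The exceptions in sign were Bmx and Il10ra among the higher genes and Socs2 among the lower. The fold changes there were smaller for 72 of the 81 and 82 of the 104, with medians of 0.87 and -1.34. Since the genes were chosen for passing in the controls, smaller values in other libraries can follow from that choice. Its part in the smaller values was not tested, and nothing is read from them. Without Jarid2-KO MPP replicate 1, which stood apart with Mpo at 4881 CPM, the sign counts were again 79 and 103, and 25 and 44 passed.

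Slamf1 (-3.60), Flt3 (3.15), Vwf (-2.74), Cavin2 (-4.42) and Ccl3 (3.14) had nearly the control fold change there. Runx1t1 (-0.71, against -2.54), Dntt (0.80, against 2.81), Il10ra (-0.13, against 2.57) and Ear6 (0.48, against 5.08) were chosen after their values were seen, as large differences. No difference between the genotypes passed in edgeR, at 0 of 15818 genes (419, or 2.65%, at an unadjusted p under 0.05; 7 by DESeq2 and 0 by limma-voom), with an adjusted p of 0.704 for Runx1t1, Dntt and Il10ra.

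**Figure D5:**
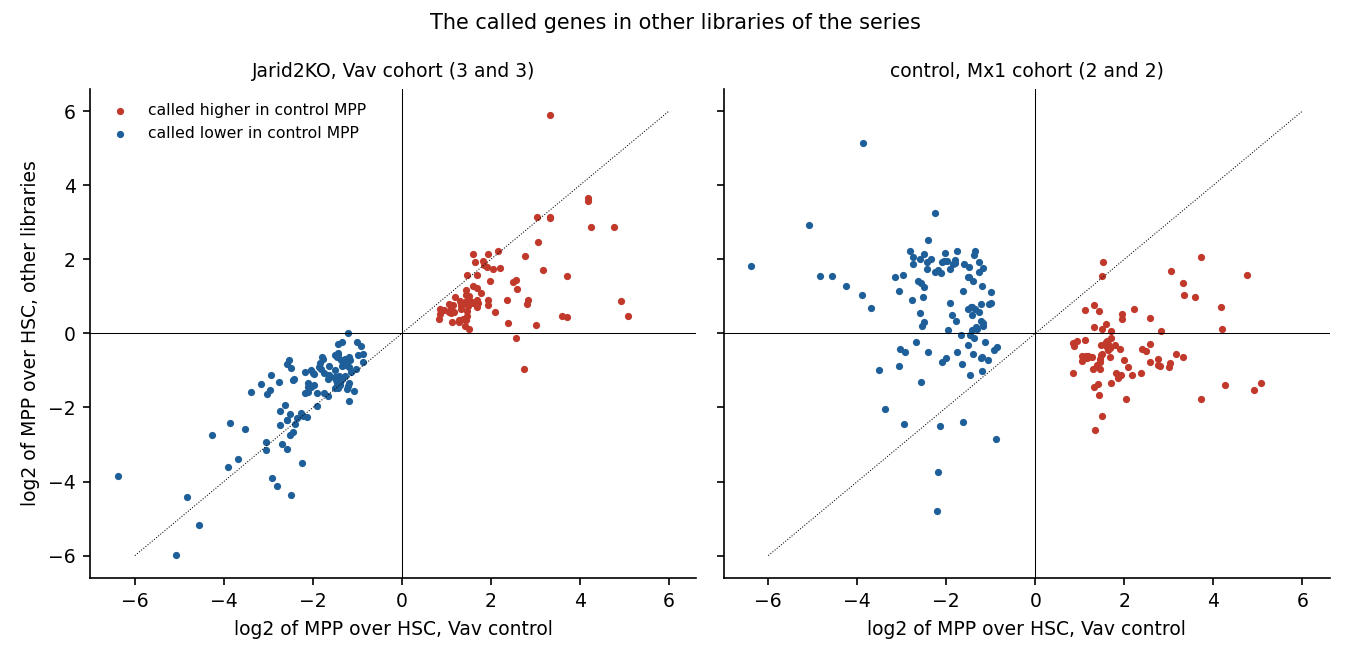
Log2 of MPP over HSC of the 185 called genes in Jarid2-KO libraries (left) and in Mx1 control libraries (right) against the Vav controls. Red genes were called higher and blue genes lower in Vav control MPP; the dotted line marks equal values. Nearly all points share a sign on the left, and most have the opposite sign on the right.

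In the control libraries of the Mx1 cohort the called genes did not keep their direction. Before any comparison, the markers did not separate those libraries by their labels. Slamf1 stood at 0.196 and 5.21 CPM in the libraries labelled HSC and at 6.95 and 3.77 in those labelled MPP, and Flt3 at 124 and 85.3 in HSC and 117 and 18.9 in MPP. Procr was at 0.0653 and 8.89 CPM and at 2.85 and 2.91. Mpo read 13652 and 17224 CPM in the libraries labelled HSC and 16446 and 3586 in those labelled MPP, and the heart gene Myh6 read 1897 and 2266 and then 1159 and 17422. Of the 81 genes higher in Vav control MPP, 22 were higher in Mx1 control MPP (27.2%, against 51.6% of all genes). Of the 104 lower, 31 were lower (29.8%, against 47.6%). Over all 19616 genes 0 passed in edgeR (523, or 2.67%, at an unadjusted p under 0.05; 3 by DESeq2 and 0 by limma-voom). The part of the granulocyte and heart transcripts in these values was not tested, and the cohorts also differ in age, driver and pIpC treatment, which cannot be told apart.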

How the data were processed

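Gene tables of 24 RNA-seq libraries were read and grouped by their labels. The submitters' processing notes list mm10 and the tools Partek 6.6, HTSeq 0.8.0, featureCounts 1.4.5, Subread and STAR 2.0.4, without the part each played. Each deposited table gives whole-number counts by gene in its Count column per the file headers, CPM scales the count to the library total, and the deposited RPKM column divides CPM by gene length; both were recomputed from the counts as a check. Strand use in counting is not given in the sources used here, so antisense partners cannot be told apart. Each table lists 41388 genes, 40254 with a symbol.

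The 12 Vav libraries (4 groups of 3) were fitted together in edgeR 4.0.16 under R 4.3.3: filterByExpr with a minimum count of 10 and total of 15, TMM scaling, and robust quasi-likelihood F tests with Benjamini-Hochberg adjustment over 15818 genes, at a threshold of 0.05, with 8 residual degrees of freedom. The 12 Mx1 libraries were HSC and MPP of control, Jak2V617F and Jak2V617F with Jarid2-KO mice (2 per group). They were fitted together, so the mutant libraries also entered the filter and the estimate of spread (19616 genes). The cohorts were kept apart since exons are listed differently between them for 14573 genes, though gene length differs for 0 genes. SE is the log2 fold change over the square root of F, and levels are mean ± SD of CPM. Replicates are pools, and p-values measure the spread between pools.

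The comparison and its 32 gene lists were chosen with earlier results of these data known, so list counts are descriptions. Genes named are the sort gate genes and Jarid2, the 12 largest rises and 12 largest falls past the threshold with logCPM of at least 2 and no overlap (without predicted genes and small RNAs), up to 6 called members per list, and the 2 most abundant members of a list with none. Other genes, with those chosen for a list's uncalled values, were named after their values were seen. Alternatives were DESeq2 1.42.0, limma-voom (limma 3.58.1) with quality weights, DESeq2 size factors, no filter, a minimum count of 20, a replicate block, only the groups compared, and leaving out each library. The 8 chromatin libraries were not analysed here. Results for some genes are not reported here, although list counts include them.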

Additional observations from a re-analysis of the deposited data

How the results depend on the processing

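Of the 52 called genes named by rule, 0 changed sign in any alternative and 30 kept the call in all 20. The count of 185 genes (81 higher, 104 lower) was 187 with DESeq2 size factors and 198 with a minimum count of 20. With no filter it was 451 (230, 221), by DESeq2 472 (213, 259), by limma-voom 742 (353, 389) and 395 (204, 191) with only the 6 control libraries. Leaving out single libraries gave 61 to 403 calls, 22 to 186 higher and 34 to 217 lower. Deviations of same-numbered control HSC and MPP had correlations of 0.299, -0.00907 and 0.031, against -0.194 to 0.2 for different numbers. Only replicate 1 lay outside that range. The numbers were not taken as pairs, although so few values cannot decide it. With genotype and number as a replicate block the count was 167. With only the controls it was 607 (323, 284) with the replicate block, against 395 without. The Jarid2-KO count of 83 was 399 by DESeq2, 563 with no filter, 23 with only its 6 libraries and 36 to 180 with single libraries left out. The genotype difference gave 7 by DESeq2 and 74 with no filter, and Mx1 controls 3 and 5. Genes near 0 changed sign without being called. Kit was -0.10 by limma-voom and -0.22 to 0.33 with libraries left out. Tnni3 was 0.01 by DESeq2, with its size factors, by limma-voom and with only the controls, 0.00 at a minimum count of 20, and -0.26 to 0.21 with libraries left out. Ncl was 0.01 and Dnmt3a -0.07 by limma-voom, and Pkm -0.00. With libraries left out Ncl ran -0.19 to 0.09, Npm1 -0.20 to 0.03, Aldoa -0.09 to 0.09, Pkm -0.08 to 0.14, Rnf2 -0.02 to 0.21, Dnmt1 -0.43 to 0.06 and Dnmt3a -0.13 to 0.12. The median of the stroma and endothelium list ran from -0.68 to 0.38 with libraries left out. Without HSC replicate 1 the immediate early median turned from -0.23 to 0.13 and the retinoic acid median from -0.17 to 0.01, and some medians within 0.1 of 0 changed sign too. The mast cell, basophil and eosinophil median fell from 3.24 to 1.39 with only the controls and 2.32 at a minimum count of 20. The cause of these shifts was not tested. Precision is limited by 3 pools a group.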
